A study of Homo sapiens with 2 samples.

Results

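The nuclear genes of oxidative phosphorylation were taken as the protein-coding genes of GENCODE release 44 in its version for GRCh37, also called hg19, that lie on nuclear chromosomes and have symbols beginning NDUFA, NDUFB, NDUFC, NDUFS, NDUFV, UQCR, COX4, COX5, COX6, COX7, COX8 or ATP5, together with *SDHA*, *SDHB*, *SDHC* and *SDHD*. The rule gave 98 of 20163 nuclear protein-coding genes, on 22 chromosomes. Of these, 46 belong to complex I, 4 to complex II, 9 to complex III, 19 to complex IV and 20 to complex V; *NDUFA4* and *NDUFA4L2* were counted with complex IV, where the *NDUFA4* protein resides. They comprise 77 structural subunits, 8 complex I assembly factors of the NDUFAF family, 7 tissue isoforms, 2 copies of other members, 2 read-through genes, the inhibitor *ATP5IF1* and the supercomplex factor *COX7A2L*.

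CHD4 binding was profiled by ChIP-seq in 501Mel, an established line of human melanoma cells, from 1 CHD4 ChIP library and 1 input library of chromatin fixed with 0.4% paraformaldehyde. The deposited list holds 60126 broad peaks on hg19. Each peak carries a fold enrichment, which is the ratio of the ChIP over the background set by the peak caller, and a −log10 q, on which higher values mean stronger evidence for the peak. There were no replicates, so no value below has a spread between samples and no test was made.

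CHD4 is an ATP-driven remodeller of nucleosomes and the motor subunit of the NuRD complex, which also removes acetyl groups from histones. Complexes I to IV of the inner mitochondrial membrane carry electrons from nutrients to oxygen and pump protons, and complex V uses the proton gradient to make ATP. Most of their subunits are encoded in the nucleus by genes active in nearly all cells, and melanoma cells can shift between this route and glycolysis for their energy.

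A gene was counted as carrying CHD4 when at least 1 bp of a peak fell in it or in the 2000 bp upstream of its start. At least 1 peak lay at 61 of the 98 genes, or 62.2% (Wilson 95% interval 52.4% to 71.2%, which covers counting error alone). The same rule counted 58.3% of all protein-coding genes, which are longer than the members and so offer more room for a peak. There were 117 peaks at these genes, 3 of them shared by 2 genes; 32 genes had exactly 1 peak and 20 had exactly 2. Against the gene body alone, without the 2000 bp before the start, the order turned round, with 48.0% of the oxidative phosphorylation genes and 50.8% of all genes, because 14 of the 61 genes were counted only through the sequence before their start.

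Close to the gene start the members stood higher than the background. A peak within 1000 bp of the start, called a promoter peak here, was present at 46 genes, or 46.9% (37.4% to 56.7%), against 33.8% of all protein-coding genes. Of the 61 genes with a peak, 15 had peaks only away from the promoter. Over the whole counted region, 42 genes had a peak with a −log10 q of at least 2, against 43.2% of all genes, and 2 genes, *COX6A1* and *NDUFA11*, had one of at least 5, against 4.73% of all genes. For promoter peaks the shares at these levels were 25.5% and 2.04% of the members, against 20.8% and 1.5% of all genes. Further, 9 members had 3 or more peaks, against 22.1% of all genes, and 3 members had a peak of at least 3000 bp, against 5.45%. The number of peaks rose with gene length, so the share of all genes is not a like-for-like background here.

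The fold enrichment of the 117 peaks had a median of 3.14 and ran from 2.53 to 5.34. The median was 3.09 for the 36667 peaks at all protein-coding genes and also 3.09 for the whole list. The 45 promoter peaks had a median of 3.23, beside 3.22 for the promoter peaks of all protein-coding genes, and the 72 other peaks had one of 3.14. The median −log10 q of the members' peaks was 2.00 and their median length 571 bp, beside 1.97 and 613 bp for the whole list. The peaks at these genes were thus of ordinary height for this list, and a −log10 q of at least 2 was given for 49.6% of them, beside 48.5% of the list. For promoter peaks the order was the other way, with 53.3% for members and 59.3% for all protein-coding genes. Their median −log10 q was 2.1 and 2.19. The lowest −log10 q in the list was 1.0, which is below the q cutoff stated for the call.

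**Figure D1:**
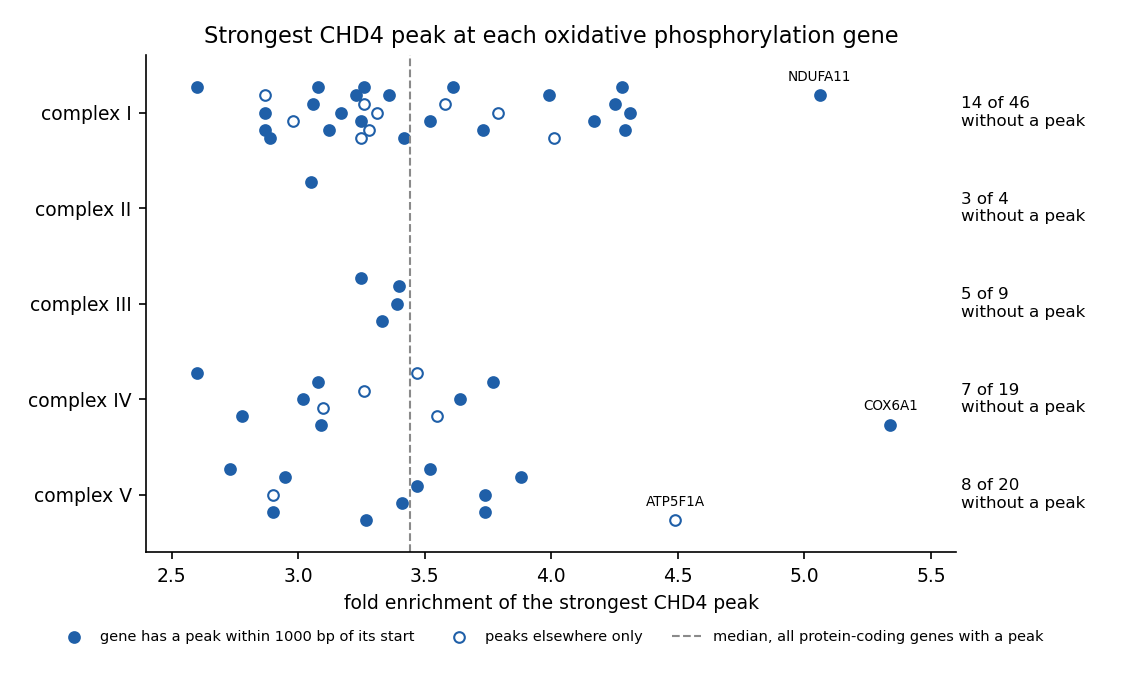
Fold enrichment of the strongest CHD4 peak (horizontal axis, ratio) at each oxidative phosphorylation gene with a peak, by complex (rows; height within a row carries no value), with filled points for genes with a peak within 1000 bp of their start and open points for the others. The dashed line is the median over all protein-coding genes with a peak, 3.44, and *COX6A1* at 5.34 and *NDUFA11* at 5.06 stand to the right of the other genes.

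The plot of the strongest peak at each gene shows how the values were spread within each complex. For the 61 genes with a peak, the strongest peak had a median fold enrichment of 3.31, below the 3.44 of all protein-coding genes with a peak. Longer genes have more chances to hold a strong peak, and the median length was 12481 bp for the oxidative phosphorylation genes and 27219 bp for all genes, so medians and shares were also read within classes of gene length. From the shortest to the longest class, the median of the strongest peak was 3.34, 3.35, 3.08 and 3.66 for members and 3.28, 3.30, 3.40 and 3.6 for all genes. It was thus below that of all genes only in the class of 20 to 60 kb.

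Among genes of up to 5 kb, 8 of 19 members had a peak (42.1%), beside 27.0% of all genes of that length. Among genes of 5 to 20 kb, 30 of 48 had one (62.5%), beside 49.4%. In the class of 20 to 60 kb the values were 15 of 23 (65.2%) and 63.1%. All 8 members over 60 kb had a peak, beside 77.5% of all genes. For promoter peaks the members' shares in the same order were 31.6%, 54.2%, 39.1% and 62.5%, and those of all genes 21.0%, 35.3%, 38.3% and 34.1%. With all genes weighted to the members' length classes, the background was 50.6% for any peak and 33.2% for promoter peaks, beside 62.2% and 46.9% of the members. The member share was above that of all genes in each class, by the least in the class of 20 to 60 kb. The interval left out the value of all genes only for promoter peaks in the class of 5 to 20 kb, where it ran from 40.3% to 67.4%. For 3 or more peaks the members' counts from the shortest to the longest class were 0 of 19, 2 of 48, 4 of 23 and 3 of 8, and those of all genes 20 of 2889, 352 of 5614, 1134 of 5815 and 2940 of 5845.

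**Figure D2:**
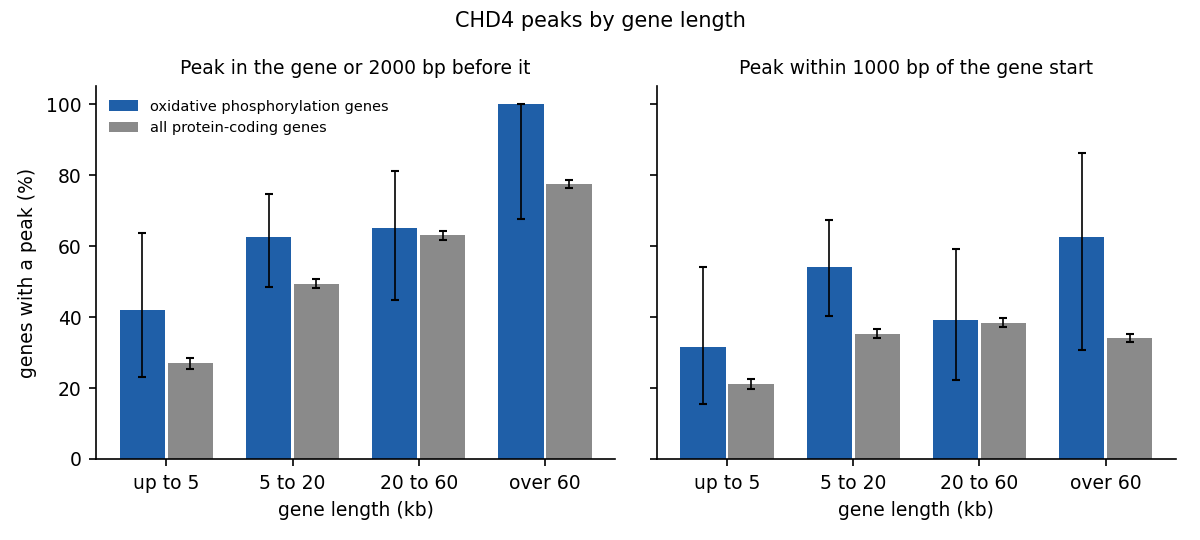
Share of genes (%) with a CHD4 peak in the gene or the 2000 bp before it (left) and within 1000 bp of the gene start (right), by gene length in kb, for the 98 oxidative phosphorylation genes (blue) and all 20163 protein-coding genes (grey). Error bars are Wilson 95% intervals and cover counting error alone; the blue bars are higher in every class, by 42.1% against 27.0% in the shortest class on the left.

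Complex I, which takes electrons from NADH, had a peak at 32 of its 46 genes (69.6%, 55.2% to 80.9%) and a promoter peak at 23. In its catalytic core, peaks lay at *NDUFS1*, an iron-sulfur subunit of the NADH-oxidising arm, at *NDUFS8*, an iron-sulfur subunit on the way to ubiquinone, and at *NDUFV1*, which binds the flavin that accepts electrons from NADH. The core genes *NDUFS3*, *NDUFS7* and *NDUFV2* had none. Of the accessory subunits, 8 of 13 NDUFA genes, 8 of 11 NDUFB genes and both NDUFC subunit genes had a peak.

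The strongest peak of complex I lay at the start of *NDUFA11*, an accessory subunit of the membrane arm. It covered chr19:5903926-5904102, 177 bp, enriched 5.06-fold, above 99.6% of the list, at a −log10 q of 6.28. Its centre was at -213 bp from the canonical start, the start of the transcript that the annotation takes as representative, and it did not reach that start, while it covered the outermost annotated start of the gene. The starts of 3 other protein-coding genes, among them *VMAC*, lay within 1000 bp, so the peak cannot be given to *NDUFA11* alone. Of the members' 45 promoter peaks, 18 lay this near the start of another protein-coding gene. A further *NDUFA11* peak, of fold enrichment 3.17, lay 10943 bp after the start. The 85 bases of the strong peak that lie outside every annotated exon are printed because this is the strongest complex I peak; they run from chr19:5904018-5904102 on GRCh37, minus strand, and hold none of the 5 motifs described with the promoter letters.
NDUFA11: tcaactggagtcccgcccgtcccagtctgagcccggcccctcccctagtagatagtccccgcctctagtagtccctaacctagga

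*NDUFS5*, an accessory subunit on the intermembrane space side, had a single peak of 2168 bp, enriched 4.31-fold at a −log10 q of 4.46. It ran over the canonical start and covered 53 bp of exon 1 and 741 bp of intron 1. No other protein-coding start lay within 1000 bp, which sets it apart from the *NDUFA11* peak.

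*NDUFA13*, an accessory subunit also known as GRIM-19, had a promoter peak of fold enrichment 3.99 over 1034 bp that covered its canonical start, and a weaker peak of 2.93 farther upstream. The starts of *TSSK6* and of an unnamed protein-coding gene also lay within 1000 bp of the *NDUFA13* promoter peak. *NDUFB10*, an accessory subunit of the membrane arm, had a peak of 3.91 over its start and a short one of 4.17 inside the gene, which covered 68 bp of exon 2 and 124 bp of intron 1. *NDUFB3*, also an accessory subunit of the membrane arm, had its stronger peak, of 4.25, centred at -2340 bp from the canonical start, and a promoter peak of 3.04. *NDUFAB1* encodes the acyl carrier protein of mitochondria, which is at the same time a complex I subunit. Its peak of 3019 bp had a fold enrichment of 3.73 and ended 193 bp before the start.

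Other complex I genes had several peaks each. *NDUFB5* had 4, from 2.58 to 2.87, a pair of them on either side of its start, which it shares at 156 bp with *MRPL47* on the other strand. *NDUFC1* had 3, from 2.98 to 3.58, none within 1000 bp of its gene start. *NDUFC2-KCTD14*, an annotated read-through of neighbouring genes, had 7, of which the 2 nearest its start are shared with *NDUFC2*; its strongest, of 4.28 over 2016 bp, lay in intron 3, beyond *NDUFC2*. These counts rest on the length of the annotated genes as much as on the peaks.

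The NDUFAF assembly factors, which build complex I and are not part of it, had a peak at 5 of 8 genes and a promoter peak at 2. *NDUFAF6* had 13 peaks, the most of any member, and the longest of all, 4875 bp with a fold enrichment of 4.29. That peak lay 76202 bp after the canonical start and outside the canonical transcript. Of the 13, the peak at the outermost annotated start, of 3.01, was also within 1000 bp of the start of *CCNE2*, and the one before the canonical start had a fold enrichment of 3.31. *NDUFAF3* had a short peak of 4.01, centred at -3383 bp from its canonical start and within 1000 bp of the start of *DALRD3*, and a weaker one of 3.19 over its own canonical start.

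Complex II, which passes electrons from succinate to ubiquinone, had a peak at 1 of its 4 genes. *SDHC*, a membrane anchor, had 3 peaks. The first ran over the canonical start from chr1:161281906-161284884, 2979 bp, enriched 3.05-fold at a −log10 q of 1.88; the others lay in intron 1, with 2.59, and in intron 5, with 2.92. *SDHA*, the flavoprotein that oxidises succinate, *SDHB*, its iron-sulfur partner, and *SDHD*, the other anchor, had no peak. The nearest peak lay 1169 bp outside the region of *SDHA*, 1960 bp outside that of *SDHB* and 5471 bp outside that of *SDHD*, each beyond the far end of the gene. From the starts of *SDHA*, *SDHB* and *SDHD* the nearest peak was 20012, 7598 and 38662 bp away. With 4 genes, 1 of 4 has a Wilson interval from 4.56% to 69.9%, and no more can be read from it.

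The sequences before 3 of the 4 starts are shown to set the promoter with a called peak beside those without one. That of *SDHC* covers chr1:161283921-161284170 on the plus strand and lies wholly under its peak; that of *SDHB* covers chr1:17380528-17380777 on the minus strand; and that of *SDHA* covers chr5:218269-218412 on the plus strand, between the starts of *CCDC127* and *SDHA*, up to the nearest annotated exon. Capitals mark a match to the NRF1 core, which *SDHB* holds and the others do not. The share of all promoters with such a match is given with the other letters.
SDHC: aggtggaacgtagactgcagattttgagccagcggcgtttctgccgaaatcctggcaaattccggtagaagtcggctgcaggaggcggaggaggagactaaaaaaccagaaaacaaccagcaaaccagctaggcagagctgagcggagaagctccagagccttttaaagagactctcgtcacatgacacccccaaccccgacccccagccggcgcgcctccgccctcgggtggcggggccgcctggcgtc
SDHB: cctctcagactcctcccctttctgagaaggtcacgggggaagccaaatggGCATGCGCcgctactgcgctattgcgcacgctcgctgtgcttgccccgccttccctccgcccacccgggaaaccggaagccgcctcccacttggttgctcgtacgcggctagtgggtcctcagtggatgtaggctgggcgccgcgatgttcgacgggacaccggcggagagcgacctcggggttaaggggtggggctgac
SDHA: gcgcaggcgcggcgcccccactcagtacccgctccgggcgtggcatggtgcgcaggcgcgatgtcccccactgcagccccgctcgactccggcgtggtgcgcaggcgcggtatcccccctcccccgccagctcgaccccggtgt

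Complex III, which hands electrons from ubiquinol to cytochrome c, had a peak at 4 of 9 genes, and all 4 had a promoter peak. The strongest peaks of these genes lay close together in fold enrichment, 3.25 at *UQCRH*, the hinge protein, 3.33 at *UQCR11*, 3.39 at *UQCRC2*, a core protein, and 3.40 at *UQCR10*, and *UQCRH* had a further peak of 2.65 in intron 1. No peak lay at *UQCRB*, at *UQCRC1*, the other core protein, at *UQCRFS1*, the Rieske iron-sulfur protein, at *UQCRQ* or at *UQCRHL*, a copy of *UQCRH*. The distance from *UQCRFS1* to the nearest peak was 321795 bp, the largest among all 98 genes.

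Complex IV, which reduces oxygen, had a peak at 12 of 19 genes and a promoter peak at 8. Among its 11 structural subunits 8 had a peak, and among the 7 isoforms of restricted tissues 3 did: *COX4I2*, *COX7B2* and *NDUFA4L2*. *COX6A1*, the broadly expressed form of subunit VIa, had the strongest peak of all 98 genes. It covered 199 bp, chr12:120875502-120875700, enriched 5.34-fold, above 99.7% of the list, at a −log10 q of 8.13. Its centre lay at -315 bp from the canonical start and its end at -216 bp, in sequence that the annotation leaves outside every exon. An unnamed protein-coding gene also starts within 1000 bp of the peak. *COX6A2*, the muscle form, had no peak. The whole *COX6A1* peak on the plus strand is printed as the strongest region of the set, and none of the 5 motifs matched it.
COX6A1: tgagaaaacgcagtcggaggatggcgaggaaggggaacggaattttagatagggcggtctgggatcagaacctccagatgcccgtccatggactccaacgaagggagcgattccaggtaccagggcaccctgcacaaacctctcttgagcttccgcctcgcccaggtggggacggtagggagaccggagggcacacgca

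The other complex IV peaks were weaker. *COX7B2*, a form best known from testis, had a promoter peak of 3.77 over 258 bp. *NDUFA4L2*, a relative of *NDUFA4* that hypoxia induces, had peaks of 3.64 and 3.25. *COX7A2L*, which joins complexes into supercomplexes, had 7 peaks, from 2.64 to 3.55, none within 1000 bp of its outermost annotated start; a peak of 2.67 lay before its canonical start.

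Complex V, the ATP synthase, had a peak at 12 of 20 genes and a promoter peak at 10. All 5 genes of the catalytic F1 head had a peak, and 6 of the 14 genes of the membrane and stalk parts, which include a read-through and a copy; the interval of the former began at 56.6% and that of the latter ended at 67.4%. *ATP5F1A*, the alpha subunit, had the strongest, with 4.49 and a −log10 q of 4.74 over 727 bp, centred at -671 bp from its canonical start. Another annotated start of *ATP5F1A* lies several kb upstream, so this was no promoter peak by the gene start. *ATP5F1B*, the catalytic beta subunit, had 2.90, *ATP5F1C*, the rotating gamma subunit, 2.90 in intron 1, *ATP5F1D* up to 3.27 and *ATP5F1E* 3.52.

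*ATP5IF1*, which blocks ATP hydrolysis by the enzyme when the gradient falls, had 3 peaks. That over its canonical start had a fold enrichment of 3.88, and another, of 3.18, lay within 1000 bp of the start of *DNAJC8*. *ATP5MF*, the f subunit of the membrane part, shared a promoter peak of 3.74 with the read-through *ATP5MF-PTCD1*. Of the genes for the proton-carrying c ring, *ATP5MC2* had 5 peaks, from 2.92 to 3.41, *ATP5MC3* had 1, of 2.73, and *ATP5MC1* none. The sequence before *ATP5F1E* is shown as a promoter under a peak with several motif matches. It covers chr20:57607401-57607640, minus strand; capitals mark 4 matches to CCAAT, 1 as written and 3 as its complement on the other strand, and 1 GC box.
ATP5F1E: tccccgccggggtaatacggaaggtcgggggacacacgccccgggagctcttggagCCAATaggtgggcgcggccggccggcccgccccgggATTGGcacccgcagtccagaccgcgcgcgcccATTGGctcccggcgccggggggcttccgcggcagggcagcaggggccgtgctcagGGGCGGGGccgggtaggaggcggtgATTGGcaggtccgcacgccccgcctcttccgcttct

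A further group of genes lay just outside the counting rule. Of the 37 genes without a peak, 8 had one within 2000 bp of the counted region. The gap was 95 bp at *NDUFV2*, 270 bp at *NDUFS7*, 409 bp at *COX6B1*, 1059 bp at *NDUFA7*, 1169 bp at *SDHA*, 1648 bp at *NDUFB6*, 1819 bp at *NDUFS3* and 1960 bp at *SDHB*. At *NDUFV2* and *COX6B1* the peak lay before the start. At the others it lay beyond the far end of the gene. From the starts of those others, the nearest peak was between 7598 bp (*SDHB*) and 21811 bp (*NDUFB6*) away. The peak nearest *NDUFB6*, beyond the far end of that gene, had a fold enrichment of 4.85, higher than all but 2 of the peaks counted at members. Allowing 5000 bp before the start raised the share with a peak to 64.3%, beside 60.6% of all genes.

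The outermost annotated start is not always the start most used, so positions were measured from the canonical start. A peak lay within 1000 bp of it at 53 of 98 genes, or 54.1% (44.2% to 63.6%), beside 34.6% of all protein-coding genes; this definition was added after the data had been seen. Among the genes it gained were *ATP5F1A*, *COX7A2*, *COX7A2L*, *NDUFAF3*, *NDUFB2* and *NDUFV3*. The strongest of these peaks was centred before the start at 45 of the 53 genes (84.9%), with a median of -338 bp relative to the start, beside 76.5% and -388 bp over all genes. It covered the start itself at 31 of them (58.5%), against 34.9% over all genes. The peaks were similar in height and length, with a median fold enrichment of 3.25 in both sets and median lengths of 713 and 701 bp.

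**Figure D3:**
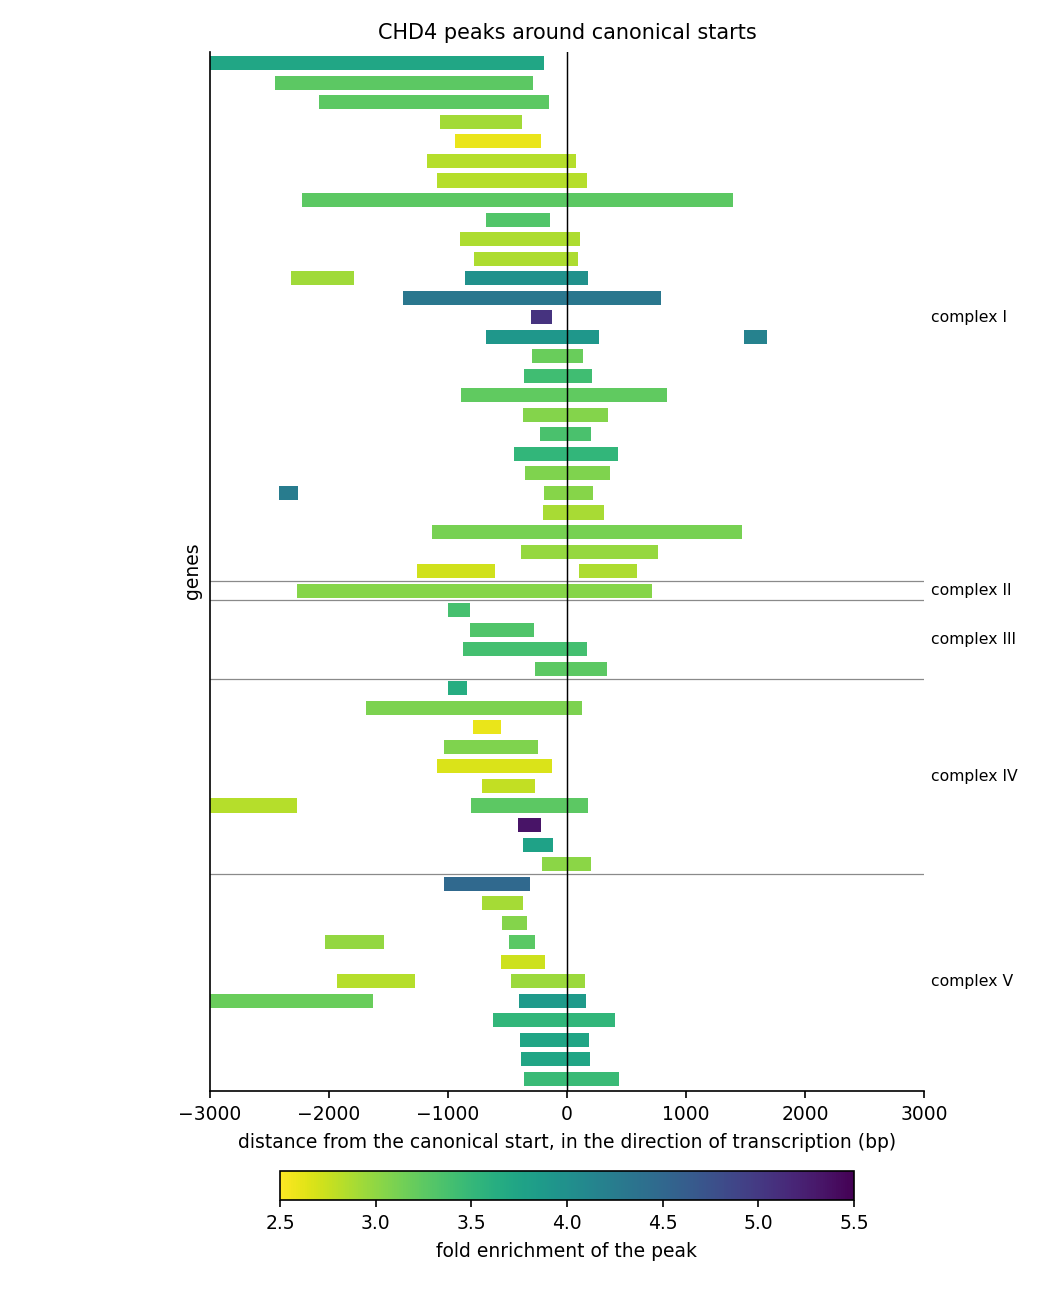
CHD4 peaks of the 53 oxidative phosphorylation genes with a peak within 1000 bp of the canonical start, drawn by distance from that start in bp in the direction of transcription, with the colour giving the fold enrichment of each peak; rows are genes, ordered by complex and by the centre of the peak at the start, and peaks are clipped at 3000 bp. The strongest peak at the start is centred to the left of it at 45 of the 53 genes.

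In the map of these peaks, most bars end at or shortly after the start. A pattern of that kind can be read base by base. The position 300 bp before the canonical start lay under a peak at 39 of the 98 genes (39.8%), the highest value among positions taken every 100 bp up to 3000 bp on either side. Over all protein-coding genes the highest value was 20.2%, at 400 bp before the start. At the start itself the values were 31.6% and 12.2%. At 1000 bp after the start the order was the other way, with 2.04% of the members and 4.59% of all genes.

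**Figure D4:**
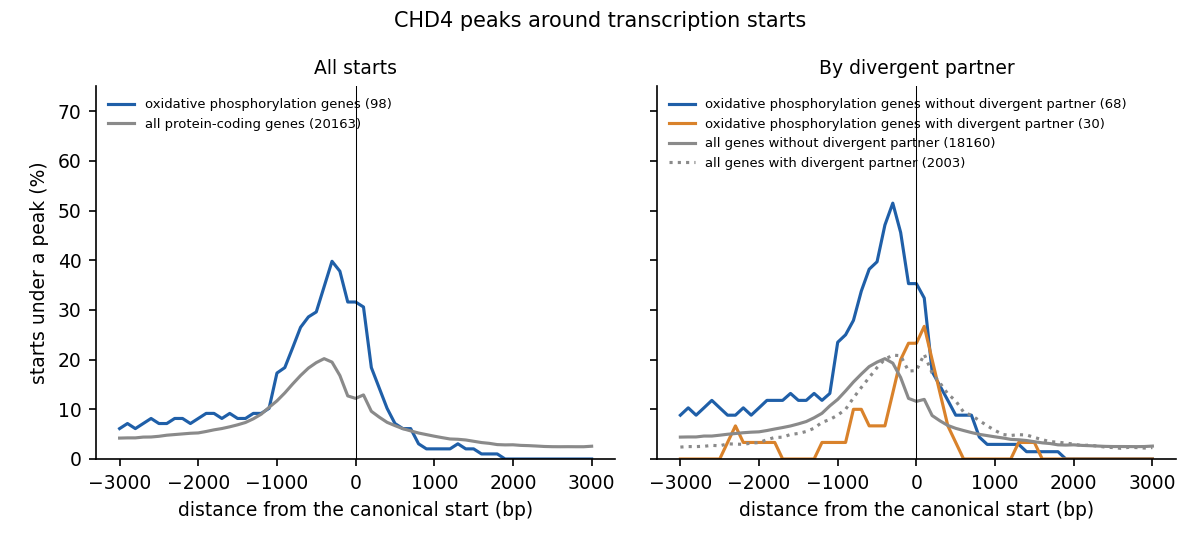
Share of canonical starts (%) at which a position lies under a CHD4 peak, by distance from the start in bp, for oxidative phosphorylation genes and all protein-coding genes (left) and for the same sets split by whether a protein-coding gene starts within 1000 bp on the other strand (right; gene numbers in the legend). The members reach 39.8% at 300 bp before the start, and 51.5% where there is no such neighbour.

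Many of these genes share their promoter with a neighbour that is transcribed the other way. A protein-coding gene on the other strand starts within 1000 bp of the canonical start at 30 of the 98 genes, and before it at 29 of the 30. Examples are *ATP5PF*, a stalk subunit, with *GABPA*, 68 bp away, *NDUFA7* with *RPS28*, 121 bp away, and *SDHD* with *TIMM8B*, 117 bp away. Of these 30 genes, 8 had a peak within 1000 bp of the canonical start, or 26.7% (14.2% to 44.4%). Of the 68 genes without such a neighbour, 45 had one, or 66.2% (54.3% to 76.3%). These intervals do not overlap. By the outermost gene start the counts were 8 of 30 (14.2% to 44.4%) and 38 of 68 (55.9%, 44.1% to 67.1%), and those intervals overlap slightly.

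Over all protein-coding genes the order was the other way, with 41.4% (39.3% to 43.6%) of 2003 genes with a divergent neighbour and 33.9% (33.2% to 34.6%) of the 18160 others. Within complex I the counts were 5 of 18 and 22 of 28, and within complex V 1 of 6 and 10 of 14. Complex IV has 1 gene of the first kind, *COX4I1*, without a peak there. Complex III went the other way, with 2 of 3 and 2 of 6. The same split gave 2 of 14 and 45 of 73 for cytosolic ribosomal protein genes, and 11 of 26 and 34 of 51 for mitochondrial ones. The 8 members with both a neighbour and a peak are *NDUFA8*, *NDUFA13*, *NDUFB3*, *NDUFB5*, *NDUFS1*, *UQCR10*, *UQCRH* and *ATP5PB*, and at 7 of them the strongest such peak covered the canonical start. Why the split differs between gene sets was not tested.

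Sequences between a pair of divergent starts show both kinds. Those with a peak are *UQCRH* and *LRRC41*, chr1:46769289-46769369 on the plus strand, and *NDUFA8* and *MORN5*, chr9:124922059-124922186 on the minus strand. Those without are *NDUFA1* and *RNF113A*, chrX:119005697-119005794 on the plus strand, and *UQCRQ* and *GDF9*, of which the part outside annotated exons, chr5:132202239-132202290 on the plus strand, is given. Capitals mark matches to the ETS letters, and there is 1 with a peak and 1 without.
UQCRH: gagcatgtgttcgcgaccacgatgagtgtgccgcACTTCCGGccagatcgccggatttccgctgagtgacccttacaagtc
NDUFA8: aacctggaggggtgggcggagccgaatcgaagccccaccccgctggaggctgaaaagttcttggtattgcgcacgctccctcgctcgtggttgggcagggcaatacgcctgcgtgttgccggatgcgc
NDUFA1: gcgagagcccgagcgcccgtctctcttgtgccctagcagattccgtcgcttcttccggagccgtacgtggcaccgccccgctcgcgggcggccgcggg
UQCRQ: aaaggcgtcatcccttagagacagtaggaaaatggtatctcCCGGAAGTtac

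The letters of the promoters were read from 250 bases before to 50 after each canonical start, for all 98 members and 20140 genes in all. The GC content had a median of 61.0% for members and 63.7% for all promoters. The ratio of observed to expected CpG had a median of 0.844 for members and 0.773 for all. A ratio of at least 0.6, taken here as CpG-rich, was found in 89 of the 98 members (90.8%), against 67.0% of all promoters. Members with a promoter peak had a median GC content of 60.0% and a ratio of 0.849, and those without one 61.8% and 0.841, so these measures hardly separated the members.

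CpG-rich promoters carried peaks more often over the whole genome, with a promoter peak at 42.8% of them, against 15.6% of the others. Among CpG-rich promoters the members stood at 41 of 89, or 46.1% (36.1% to 56.4%), an interval that includes the 42.8% of all CpG-rich promoters. The other 9 members had a promoter peak at 5, or 55.6% (26.7% to 81.1%), against the 15.6% of all such promoters. At the canonical start the CpG-rich values were 53.9% for members and 44.4% for all. Among CpG-rich promoters without a divergent neighbour, 33 of 59 members had a promoter peak (55.9%, 43.3% to 67.8%), against 43.2% of all, and among those with one 8 of 30 (26.7%), against 40.1%.

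Matches to 5 motifs were counted in the same window on either strand. The core of the NRF1 site, GCATGCGC, was found in 15 members (15.3%), against 4.27% of all promoters, and the core of the YY1 site, AAGATGGC, in 16 (16.3%), against 4.02%. The ETS letters CCGGAAGT, which GABPA and its relatives recognise, were found in 13 (13.3%), against 6.10%. The GC box GGGCGGGG was found in 17 members (17.3%), against 33.8%, and CCAAT in 32 (32.7%), against 35.9%. These are matches of letters and not measured sites of a factor.

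With and without a promoter peak, the members' counts were 9 of 46 and 6 of 52 for the NRF1 core, 6 of 46 and 7 of 52 for ETS, 5 of 46 and 11 of 52 for YY1, 10 of 46 and 7 of 52 for the GC box, and 14 of 46 and 18 of 52 for CCAAT. The intervals of each pair overlap. Over all promoters each motif was more frequent with a promoter peak than without, as in 5.65% and 3.18% for YY1, 37.8% and 35.0% for CCAAT and 9.34% and 4.44% for ETS, and the members had the other order for these 3. ETS matches fell unevenly by neighbour, in 9 of 30 members with a divergent neighbour (30.0%) and 4 of 68 without (5.88%).

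The same counts were made for genes that work with these complexes but fall outside the symbol rule. *CYCS*, the electron carrier cytochrome c, had 1 peak, a promoter peak of 3.72; *CYC1*, the cytochrome c1 of complex III, and *DMAC2L*, an ATP synthase factor, had none. Of 50 other assembly factors, 35 had a peak (70.0%) and 27 a promoter peak (54.0%). Among them *SDHAF1*, which helps to fit the iron-sulfur clusters of *SDHB*, had a promoter peak of 5.41 with a −log10 q of 7.08, and *UQCC1*, an assembly factor of complex III, had 10 peaks with the strongest at 4.38.

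Of 12 regulators of mitochondrial gene expression, 6 had a peak. The coactivators *PPARGC1B* and *PPARGC1A* had 9 and 8 peaks, with the strongest at 4.41 and 3.79. *NRF1*, a factor for many respiratory genes, had 5, with the strongest at 3.51. *TFB1M*, a methyltransferase of mitochondrial ribosomal RNA, had 4, with the strongest at 3.39, and *TFAM*, which packages mitochondrial DNA, and the nuclear receptor *ESRRA* had 1 each, of 3.65 and 3.24. No peak lay at *GABPA*, *GABPB1*, *POLRMT*, *PPRC1*, *TFB2M* or *YY1*.

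**Figure D5:**
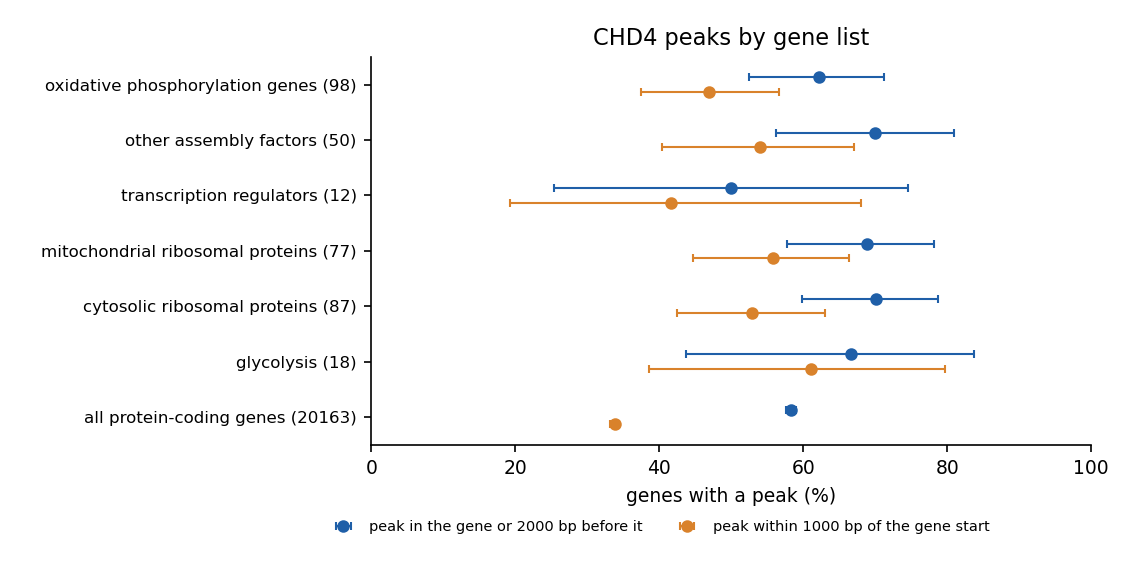
Share of genes (%) with a CHD4 peak in the gene or the 2000 bp before it (blue) and within 1000 bp of the gene start (orange) for each list, with the number of genes in brackets. Bars are Wilson 95% intervals and cover counting error alone. The oxidative phosphorylation genes stand at 62.2% and 46.9%. The intervals of the other lists overlap theirs, except for promoter peaks over all protein-coding genes. There the interval is 33.1% to 34.4%, beside 37.4% to 56.7% for the oxidative phosphorylation genes.

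Other gene sets with constant duties gave similar values, as the plot by gene list shows. A peak lay at 61 of 87 cytosolic ribosomal protein genes (70.1%), 53 of 77 mitochondrial ribosomal protein genes (68.8%) and 12 of 18 glycolysis genes (66.7%). For promoter peaks the shares were 52.9%, 55.8% and 61.1%. The oxidative phosphorylation genes, at 62.2% and 46.9%, were the lowest of these 4 sets in both counts, within the intervals of the others. Their peaks lay nearer the start than those of the cytosolic ribosomal protein genes, of which 5 of 47 (10.6%) covered the canonical start, with a median centre of -648 bp. Glycolysis, the other main source of ATP, has too few genes for a firm share.

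Many of these genes have processed copies elsewhere in the genome, to which short reads may fit as well. The annotation names 195 pseudogenes after 52 of the members. A peak overlapped 10 of them (5.13%), beside 3.64% of all 15399 annotated pseudogenes. The authors kept reads with a unique best position, so reads that fit a gene and its copies equally were not counted at either.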

How the data were processed

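CHD4 ChIP and input chromatin of 501Mel cells gave 1 library each. Reads from 1 end were aligned to hg19 by the authors using Bowtie, those with more than 1 best position were dropped, and MACS2 was run in its broad mode on the ChIP. The deposited fold enrichment is the authors' ratio of ChIP over the caller's background, and the deposited −log10 q is the authors' value per region. The stated q cutoff equals a −log10 q of 2, and values in the list go down to 1.0. The broad mode of MACS2 has a separate cutoff for linked regions, which the notes do not give; whether the values follow it was not tested. Whether the call used the input as its control is not stated in the sources. The submitters' processing notes list bcl2fastq 2.17.1.14, Bowtie 1.0.0 and MACS2 2.1.1.20160309. The file holds no read counts; the reporting summary of the study gives 61118955 unique reads for CHD4 and 55232825 for the input.

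Peak positions, counted from 1, were compared with GENCODE release 44 on GRCh37. On all 24 nuclear chromosomes the last peak ended within the sequence. No filter was put on the peaks; mitochondrial ones entered no gene count. The gene start is the outermost annotated one. The canonical start is that of the transcript the annotation marks as canonical, or the gene start for 282 genes without such a mark. An overlap of 1 bp counted. Of the promoters, 23 without a full window of known bases were left out. The printed sequences are those of GRCh37, cut where needed to the longest stretch outside annotated exons. Wilson 95% intervals cover counting error only, and genes and peaks are not replicates. Overlap counting was tested on simulated data.

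The named genes are the 10 members with the strongest peak and the 10 with the strongest promoter peak, most of those with 3 or more peaks or a peak of at least 3000 bp, *SDHA* to *SDHD*, members without a peak in complexes with 5 or fewer such members, the transcription regulators and the 3 other listed genes with the strongest peaks. Other genes were named, and the start profile was added, after their values had been seen. The members and lists were chosen with earlier results of these data known. The length-weighted share averages the shares of all genes in the 4 length classes by the number of members in each. Alternatives covered other regions, widths, starts, overlaps, q thresholds and structural subunits alone. Python 3.11.15, numpy 2.4.6, pandas 2.3.3, scipy 1.17.1 and matplotlib 3.10.9 were used.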

Additional observations from a re-analysis of the deposited data

Results flagged for a closer look

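The rule for nuclear genes leaves out the mitochondrial sequence, which encodes further subunits of these complexes. The list holds 3 peaks there, with fold enrichments of 3.48, 3.26 and 2.97, the strongest over 10241 bp. They were flagged because they lie outside the sequence the gene counts use. Their lengths of 10241, 3331 and 1024 bp were also above the median of 613 bp for the whole list. CHD4 is a nuclear protein, and what these peaks reflect was not tested. They were given to no gene.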

How the results depend on the processing

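No paired analysis was possible because the ChIP and the input were each sequenced as 1 library. The share of members with a peak, 62.2%, fell to 48.0% for the gene body alone, to 42.9% for peaks whose −log10 q reached 2 and to 2.04% for those that reached 5. In these 3 settings it lay below that of all genes (50.8%, 43.2% and 4.73%), where the main share lay above. The share with a promoter peak, 46.9%, fell to 25.5% and 2.04% at these q levels, above that of all genes in both (20.8% and 1.5%). The median fold enrichment, 3.14, became 3.42 at the lower q level and 3.31 for the strongest peak of each member, below all genes (both 3.44 when rounded). A stricter q keeps fewer peaks by construction; otherwise the cause was not tested. The other settings stayed within the counting interval and on the same side of all genes, among them the canonical start, added after seeing the data, at 54.1%. Depth sets a limit too, and the list holds no reads, so that a gene without a peak may hold signal under the threshold of the call.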
